A study of Mus musculus with 12 samples.

Results

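The mouse genes for the oligoadenylate synthetases (Oas1a, Oas1b, Oas1c, Oas1g, Oas2 and Oas3) and the synthetase-like proteins (Oasl1 and Oasl2) were followed in RNA sequencing of M1-activated bone marrow-derived macrophages (BM-Mɸs). They were found in the deposited table by symbol, as 8 of its 22243 genes and 9 of its 28808 transcripts. The libraries came from 6 ErbB4 myeKO mice, which carry a floxed ErbB4 and Cre under the LysM (Lyz2) promoter of myeloid cells, and from 6 ErbB4 FF mice, which carry the same floxed ErbB4 without Cre. The mice were of C57Bl/6 background, 1 of each genotype came from each of 6 litters, and age and sex are not on the labels. Marrow was grown with M-CSF in CMG14-12 conditioned medium, and in all 12 cultures M1 activation used IFNγ at 100 U/ml over 16 h, followed by LPS at 100 ng/ml over 6 h, so no library shows unstimulated cells. The labels also carry 6 batch letters, 1 per litter, so that litter and batch cannot be told apart.

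Oligoadenylate synthetases are enzymes that interferon induces and double-stranded RNA switches on. They join ATP into short chains of adenosine with 2′,5′ bonds, and these chains set off the decay of viral and cellular RNA, so that protein synthesis stops. Abce1, which dampens this response, and Pde12, which degrades the chains, act on the same axis, and the synthetase-like proteins share the fold but serve mainly other steps of antiviral defense. The comparison of genotypes asks whether BM-Mɸs made from mice lacking ErbB4 in myeloid cells differ in the RNA of these genes.

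The values were TPM, in which the reads of each transcript are divided by its length and each library is scaled to the same total, so that levels can be set side by side between genes. No member differed between genotypes past the threshold of an adjusted p of 0.05 in limma, which fits all genes together (0 of 7 tested, as 0% of 8780 genes passed). The 7 members with a mean of at least 1 TPM all had an average below 0 for the log2 ratio of ErbB4 myeKO to ErbB4 FF, a direction shared by 50.2% of all genes tested, and their median was -0.22 beside 0.00 for all genes. Without litter 2 it was 5 of 7, and without litter 6 it was 7 of 7, with Oasl1 and Oasl2 at -0.02 and Oas2 at -0.05. In bulk RNA, fewer cells that express a gene and less of its RNA per cell cannot be told apart.

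The label check and the cell type markers belong beside every ratio. Erbb4 was at 0.583 ± 0.242 TPM in libraries labelled ErbB4 myeKO and at 0.450 ± 0.132 TPM in those labelled ErbB4 FF (SD, n = 6), and the groups overlapped. TPM cover the whole transcript and not the deleted exons, so this level checks no deletion, and the genotypes rest on the labels. Lyz2, the gene whose promoter drives Cre, was below the littermate level in libraries labelled ErbB4 myeKO of litters 1 to 5, with log2 ratios of -0.81 to -1.20 (mean of 6 litters -0.59 ± 1.00, SD, n = 6 litters; limma adjusted p = 0.641). In litter 6 it went against the labels, with 7997 TPM in the library labelled ErbB4 myeKO, 2964 TPM in that labelled ErbB4 FF and a ratio of 1.43. The values of the gene lists and of Abce1 without litter 6 were added after the data were seen. The macrophage genes Adgre1 and Cd68 lay between 662 and 1060 TPM and between 314 and 571 TPM, and Csf1r, the receptor for M-CSF, between 168 and 473 TPM. Of the macrophage list all 12 genes were tested and 8 lay below 0 (median -0.16, or -0.15 without litter 6), while all 6 stromal genes tested (median 0.16) and 3 of 4 dendritic cell genes (median 0.22) lay above 0 and 3 of 6 neutrophil genes did (median -0.07). Without litter 6 this held for 2 of 6 stromal genes (median -0.01), 2 of 4 dendritic cell genes (median 0.16) and 2 of 6 neutrophil genes (median -0.30). None of them passed the adjusted threshold. Summed TPM of 12 neutrophil markers ranged from 64.4 to 418 in ErbB4 myeKO and from 65.6 to 235 in ErbB4 FF, and of 8 stromal markers from 30.4 to 294 and from 23.6 to 225. The dendritic cell markers summed to 544 to 1831 and 709 to 1668 TPM with Siglech listed at 0, and the 8 erythroid markers stayed under 1 TPM in sum with Hba-a2, Hbb-bs, Alas2 and Slc4a1 listed at 0. The 10 lymphocyte markers summed to 0.436 to 3.75 TPM in ErbB4 myeKO and to 0.603 to 2.94 TPM in ErbB4 FF, and the 11 proliferation markers to 137 to 250 and 132 to 233 TPM. The part of these cells in the ratios below was not tested.

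The 6 synthetase genes sit together on chromosome 5 and the 2 synthetase-like genes lie some distance away on the same chromosome (GENCODE M21, build GRCm38). Oas2 (ENSMUSG00000032690) is at chr5:120730333-120749853, Oas3 (ENSMUSG00000032661) at chr5:120753098-120777661, Oas1c (ENSMUSG00000001166) at chr5:120800194-120812514, Oas1g (ENSMUSG00000066861) at chr5:120876142-120887613 and Oas1a (ENSMUSG00000052776) at chr5:120896256-120907521, all on the minus strand. Oas1b (ENSMUSG00000029605), at chr5:120812635-120824163, runs on the plus strand and starts 120 bases from the start of Oas1c. Oasl2 (ENSMUSG00000029561), at chr5:114896936-114912234, and Oasl1 (ENSMUSG00000041827), at chr5:114923240-114937915, are neighbours on the plus strand.

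The stretches just before the gene starts are shown because interferon acts on these genes through a known element, a repeat of GAAA. The motif searched was GAAANNGAAA on both strands, in a window from 250 bases before to 50 bases after the RefSeq start (GRCm38.p6). Of 32817 such windows, 3.43% held it. Of the 6 members that have a window in that table, Oas1a, Oas1g, Oas1c and Oas3 held it and Oasl1 and Oasl2 did not. The 120 bases before each start read as follows, with matches in capitals.
Oas1a, chr5:120907526-120907645, minus strand: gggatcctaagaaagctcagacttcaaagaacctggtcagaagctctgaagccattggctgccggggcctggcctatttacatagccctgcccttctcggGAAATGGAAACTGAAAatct
Oas1g, chr5:120887614-120887733, minus strand: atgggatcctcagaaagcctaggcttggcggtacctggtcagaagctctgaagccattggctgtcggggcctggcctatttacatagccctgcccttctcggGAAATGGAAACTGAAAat
Oas1c, chr5:120812515-120812634, minus strand: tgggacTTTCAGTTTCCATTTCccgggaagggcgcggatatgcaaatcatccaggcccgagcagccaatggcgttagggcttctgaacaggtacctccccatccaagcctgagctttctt
Oas3, chr5:120777660-120777779, minus strand: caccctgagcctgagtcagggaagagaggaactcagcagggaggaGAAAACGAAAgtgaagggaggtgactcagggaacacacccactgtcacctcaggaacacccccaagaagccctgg

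Oas1a and Oas1g shared the same 16 capital letters, which hold 2 matches that overlap, and their whole windows were 85.3% identical. The Oas1c stretch held the same 16 letters on the opposite strand. That stretch is also the whole space between Oas1c and Oas1b, and read from Oas1b the letters end 7 bases before its start. In Oas3 the match lay alone, 75 bases before the start. A second motif, TTCNNNGAA, the core of the site that IFNγ signaling uses, was in 8.29% of all windows and, among the members, in Oas1a, where it began 98 bases before the start. A match is only a run of letters, and binding was not measured.

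How much sequence a member shares with other transcripts sets how well short reads can be assigned to it. Of the 31-letter words (31-mers) of the Oas1a transcript, 68.8% also occur in another gene, nearly all in Oas1g, and of those of Oas1g 65.4% do, leaving 14.3% found in neither another gene nor another Oas1g transcript. Over their whole length the Oas1a and Oas1g transcripts were 90.6% identical, so the split of reads between them is uncertain. For Oas2, 1 of 3839 31-mers was outside the gene's other annotated transcripts, chief among them another coding transcript of 3961 bases that is not in the deposited list. Oas1c and Oas3 had more sequence of their own, with 53.0% and 40.9% of 31-mers found nowhere else, and for Oasl2 it was 6.95%.

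Oas1b was the 1 member under the filter. Its listed transcript stood at 0 TPM in 10 of 12 libraries, and the exceptions were both libraries of litter 3, with 4.10 TPM in ErbB4 myeKO and 6.98 TPM in ErbB4 FF. The annotation calls Oas1b a polymorphic pseudogene, and common laboratory strains carry a stop codon in it that makes them sensitive to flaviviruses. Only 40 of the 1802 31-mers of the listed transcript, Oas1b-201, were in no other transcript, since 97.6% of them are in Oas1b-203, which is not in the deposited list. The stretch at chr5:120817649-120817703, inside 1 exon of Oas1b-203 on the plus strand, shows where the models part. Capitals mark the 3 single bases that the model of Oas1b-201 skips.
Oas1b-203: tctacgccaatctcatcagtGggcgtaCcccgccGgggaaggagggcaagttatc
Oas1b-201: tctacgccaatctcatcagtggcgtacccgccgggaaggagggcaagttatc
A value of 0 for Oas1b-201 is therefore no measure of the RNA of the gene, and Oas1b was left out of the counts of the other 7.

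The order of the levels was led by a synthetase-like gene. Oasl1, whose protein lacks synthetase activity and is known to hold back translation of Irf7, had a mean of 868 TPM. Oas1a, the main small synthetase, followed with 345 TPM, then Oas3, the largest synthetase and a sensor of long double-stranded RNA, with 177 TPM, and Oasl2, a synthetase with a ubiquitin-like tail, with 87.0 TPM. Oas2, the synthetase of middle size, had 32.7 TPM and Oas1g, a small synthetase, 30.2 TPM, and Oas1c stood at 4.23 TPM. Averaged over the libraries of a litter, each of the 4 steps from Oasl1 down to Oas2 and the step from Oas1g to Oas1c went the same way in all 12 libraries (exact permutation p = 0.0312, the smallest that 6 litters allow, adjusted 0.0437 over 7 pairs). The steps were 2.56-fold from Oasl1 to Oas1a, 1.99-fold to Oas3, 2.06-fold to Oasl2 and 2.89-fold to Oas2, and 6.96-fold from Oas1g to Oas1c. These are levels of the listed transcripts, 2 for Oasl1 and 1 for each other member. For Oas2 all but 1 of 3839 31-mers are also in unlisted Oas2 transcripts, so its place in the order is uncertain. Oas2 and Oas1g did not differ beyond their spread (log2 difference -0.06 ± 0.94, SD, n = 6 litters; exact permutation p = 0.969), and Oas2 was the higher in 7 of 12 libraries. The last step, from Oas1c to Oas1b, did not pass either (exact permutation p = 0.0625, adjusted 0.0729), and rests on Oas1b values of 0. As those are no measure of the gene's RNA, this step places Oas1b nowhere, though it counts among the 7 pairs. The order was the same in the libraries of either genotype alone, but without litter 2 Oas2 stood behind Oas1g (29.3 and 30.3 TPM). Of the members' summed TPM, which ran from 1227 to 1862, Oasl1 took between 45.5% and 67.8% and Oas1a between 14.8% and 32.8%.

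**Figure D1:**
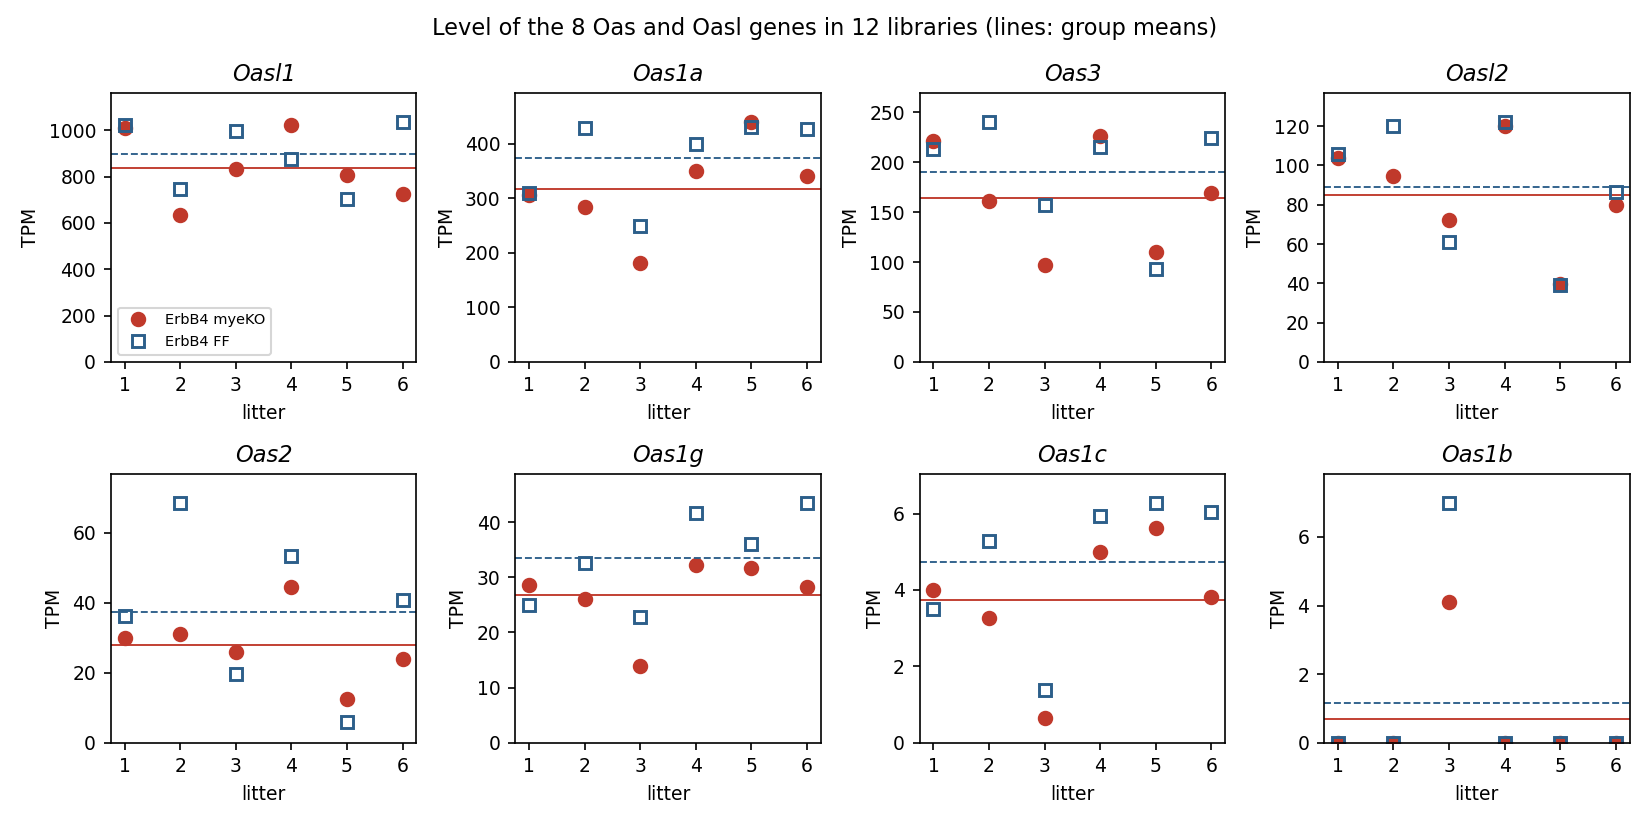
Level in TPM (vertical axis, linear from 0) of each member in the libraries of litters 1 to 6 (horizontal axis), with filled circles for ErbB4 myeKO, open squares for ErbB4 FF and lines for the group means (solid and dashed). Both points of litter 3 are the lowest for Oas1a, Oas1g and Oas1c, and both points of litter 5 are the lowest for Oas2 and Oasl2.

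With all 6 litters the small synthetases had the lowest average ratios of the family. Without litter 3, litter 5 or both, Oas2 lay below Oas1a and Oas1g, at -0.28, -0.40 and -0.60. Oas1a ran from 181 TPM to a median of 323 and a highest value of 439 in ErbB4 myeKO, and from 249 to a median of 413 and a highest value of 431 in ErbB4 FF. The groups overlapped, and ErbB4 myeKO was below its littermate in 5 litters while litter 5 lay 0.03 above 0. Its log2 ratio was -0.26 ± 0.24 (SD of 6 litters), which is 0.836-fold, and the 95% interval in limma ran from -0.47 to -0.04 (adjusted p = 0.603; exact permutation p = 0.0938). Oas1g ran from 14.0 to a median of 28.4 and a highest value of 32.2 TPM in ErbB4 myeKO, and from 22.8 to 34.3 and 43.4 TPM in ErbB4 FF. Its log2 ratio was -0.33 ± 0.31 (SD of 6 litters), with litter 1 above 0 and the others below (limma adjusted p = 0.603; exact permutation p = 0.0938). Since Oas1a and Oas1g share most of their sequence, they are not separate witnesses of this direction.

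Oas1c, a small synthetase gene of low level, ran from 0.639 to a median of 3.92 and a highest value of 5.63 TPM in ErbB4 myeKO, and from 1.38 to 5.60 and 6.27 TPM in ErbB4 FF. The log2 ratio was -0.35 ± 0.35 (SD of 6 litters), above 0 in litter 1 alone (limma adjusted p = 0.603; exact permutation p = 0.0938). The authors' mean of log counts for its transcript corresponds to about 50 normalized estimated counts, against 3638 for Oas1a and 333 for Oas1g. These were the 3 of 7 members with an unadjusted p under 0.05 and a ratio below 0, where 4.38% of all genes tested had both, and also the 3 of 7 that were lower in at least 5 of 6 litters, as 14.3% of all genes were. Each was lower in exactly 5 litters, litter 6 among them, and without litter 6 each was lower in 4 of 5, as 21.8% of all genes tested were in at least 4. Each missed the adjusted threshold, and with litter 2, 3 or 6 left out the count at an unadjusted p under 0.05 was 0 in place of 3.

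Oas2 and Oas3, with their repeated synthetase domains, had the widest spread of litter ratios. Oas2 ran from 12.6 to a median of 27.9 and a highest value of 44.6 TPM in ErbB4 myeKO and from 6.01 to 38.6 and 68.4 TPM in ErbB4 FF, so that the ErbB4 FF libraries alone spanned the whole range of the others. Its litter ratios went from -1.12 in litter 2 to 1.01 in litter 5 (log2 ratio -0.17 ± 0.77, SD, n = 6 litters; limma adjusted p = 0.855; exact permutation p = 0.625), and the SD was the widest of the members, where the median SD over all genes was 0.34. Without litters 3 and 5, a choice made after the values were seen, the estimate for Oas2 was -0.60, still short of the threshold. It was -0.05 without litter 6, -0.40 without litter 5 and 0.02 without litter 2. All of these are values of the listed Oas2 transcript. Of its 3839 31-mers 1 is outside the gene's other transcripts, so its spread need not be that of the whole gene's RNA. Oas3 ran from 97.2 to a median of 165 and a highest value of 226 TPM in ErbB4 myeKO and from 93.1 to 214 and 240 TPM in ErbB4 FF. It was lower in 3 litters and higher in 3 (log2 ratio -0.22 ± 0.39, SD, n = 6 litters; limma adjusted p = 0.654; exact permutation p = 0.250), and without litter 3 the estimate was -0.12.

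With all 6 litters the synthetase-like genes had the average ratios closest to 0, but without litter 2 Oas2 (0.02) was closer than Oasl1 (-0.07). Oasl1 ran from 636 to a median of 819 and a highest value of 1021 TPM in ErbB4 myeKO and from 702 to 938 and 1035 TPM in ErbB4 FF, with nearly the same span. The log2 ratio was -0.10 ± 0.29 (SD of 6 litters), below 0 in 4 of 6 litters (limma adjusted p = 0.772; exact permutation p = 0.344). Without litter 6 the estimate was -0.02, and without litter 4 or 5 it was -0.16. The table lists 2 transcripts for Oasl1, with means of 725 and 143 TPM. Of the 31-mers of the first 97.5% are in the second, and the log2 ratios were -0.12 ± 0.32 and 0.04 ± 0.48 (SD of 6 litters). Oasl2 ran from 39.7 to a median of 87.2 and a highest value of 120 TPM in ErbB4 myeKO and from 38.9 to 96.2 and 122 TPM in ErbB4 FF. The litter ratios lay between -0.34 and 0.23, and their log2 mean was -0.04 ± 0.19 (SD of 6 litters; limma 95% interval -0.22 to 0.15; adjusted p = 0.886), with -0.02 without litter 6.

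**Figure D2:**
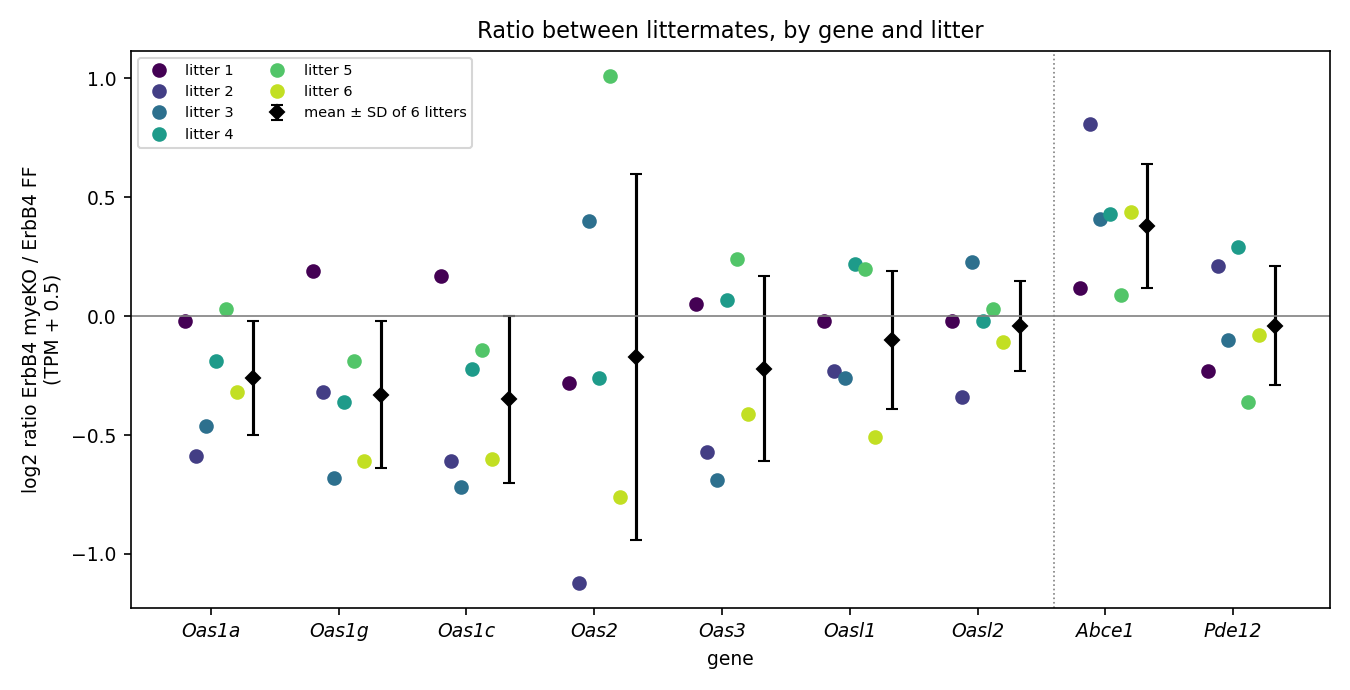
Log2 ratio of ErbB4 myeKO to ErbB4 FF between littermates (vertical axis, TPM + 0.5) for each of 7 members and, right of the dotted line, Abce1 and Pde12 (horizontal axis), with 1 coloured point per litter and a black diamond with bars for the mean ± SD of 6 litters. The means of the 7 members lie between -0.35 and -0.04, and Oas2 spreads from -1.12 to 1.01.

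The direction was not spread evenly over litters. In litters 2 and 6 all 7 members were lower in the library labelled ErbB4 myeKO, with medians of -0.57 and -0.51, while 47.2% and 47.7% of all genes tested were lower there. Litter 6 is the litter whose Lyz2 levels went against the labels, and without it the median of the members over litters was -0.18 in place of -0.22. In litters 3 and 4 it was 5 of 7, with medians of -0.46 and -0.19, in litter 1 it was 4 of 7 with a median of -0.02, and in litter 5 it was 2 of 7 with a median of 0.03. The median over all genes stayed between -0.02 and 0.02 in each litter. For the members' summed TPM the log2 ratio was -0.16 ± 0.25 (SD of 6 litters), lower in 4 of 6 litters (exact permutation p = 0.219), and without litter 6 it was -0.10 ± 0.24 (SD of 5 litters), lower in 3 of 5.

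The spread of the members was set out by litter and genotype. Litter took between 65.5% (Oasl1) and 97.4% (Oasl2) of the sum of squares of log2 TPM of a member, and genotype between 0.127% (Oasl2) and 16.2% (Oas1g), beside medians of 78.1% and 2.49% over all genes tested. Litter has 5 degrees of freedom and genotype 1, and per degree of freedom genotype took more than litter for Oas1g (16.2% and 14.3%) and less for the other 6, with Oas1a closest (12.2% and 15.8%). Mean TPM of Oas1c in the litters spanned 5.91-fold, of Oas2 5.33-fold and of Oasl2 3.07-fold. For Oas1a, Oas1g and Oas1c the lowest litter was litter 3 in both genotypes, and for Oas2 and Oasl2 it was litter 5. Oas3 was low in both, with 97.2 and 157 TPM in litter 3 and 110 and 93.1 TPM in litter 5 (ErbB4 myeKO and ErbB4 FF).

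**Figure D3:**
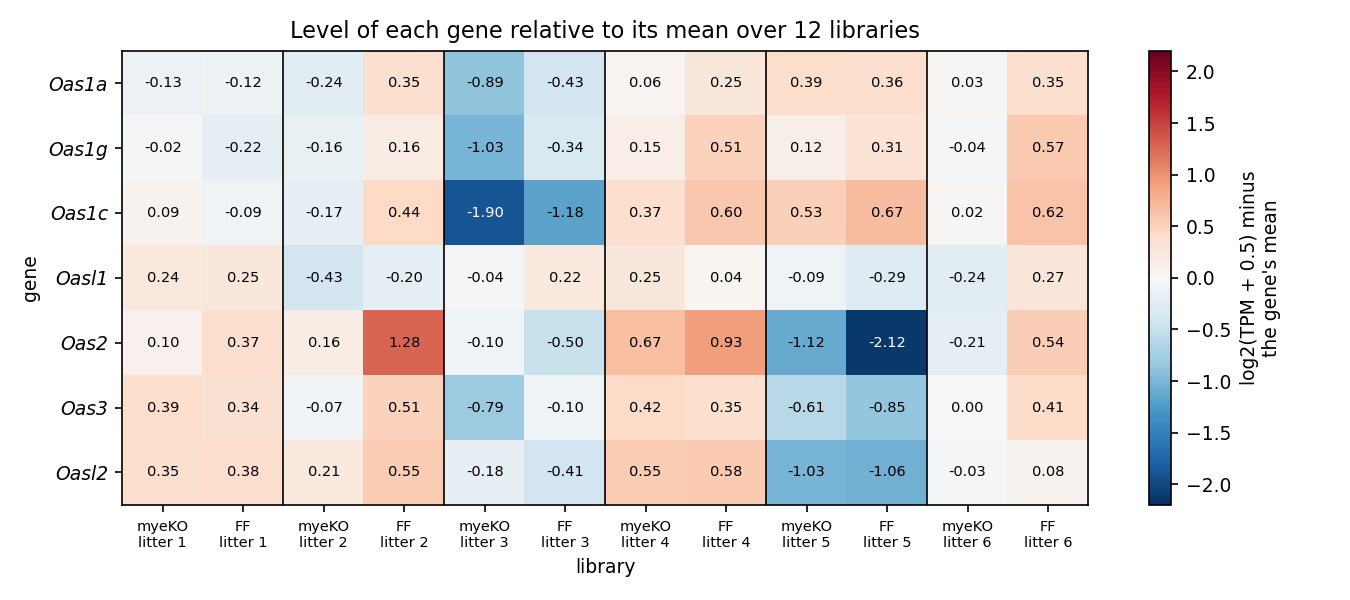
Heat map of log2(TPM + 0.5) minus the gene's mean over 12 libraries, with members in rows and libraries in columns ordered by litter, blue below and red above the mean. Oas1c falls to -1.90 and -1.18 in litter 3, and Oas2, Oas3 and Oasl2 lie between -0.61 and -2.12 in litter 5, where Oas1a, Oas1g and Oas1c are above their means.

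Some members kept closer company across libraries than others. Across the 12 libraries the pairs among Oas1a, Oas1c and Oas1g had Pearson's r of 0.92 to 0.96, the pairs among Oas2, Oas3 and Oasl2 had 0.84 to 0.93, and the pairs between these groups had -0.08 to 0.42. Oasl1 had between -0.10 and 0.47 with the others. These are descriptions of 12 libraries that share litter, depth and, for Oas1a and Oas1g, sequence. The groups were not planned and follow these same correlations, so the ranges do not test them. Without litter 5 the pairs between the groups had 0.58 to 0.91 and those among Oas2, Oas3 and Oasl2 0.66 to 0.86, so these ranges overlapped, while the pairs among Oas1a, Oas1c and Oas1g had 0.94 to 0.96. Oas3 then had 0.86 to 0.91 with Oas1a, Oas1c and Oas1g, but 0.66 with Oas2 and 0.73 with Oasl2. Without litter 3 the pairs between had -0.45 to 0.05, those among Oas1a, Oas1c and Oas1g 0.77 to 0.93 and those among Oas2, Oas3 and Oasl2 0.94 to 0.95. Without both litters the pairs between had 0.15 to 0.72, those among Oas1a, Oas1c and Oas1g 0.84 to 0.95 and those among Oas2, Oas3 and Oasl2 0.64 to 0.76. The ratio of Oas1a to Oas3 was 4.0 and 4.63 in the libraries of litter 5 and between 1.38 and 2.02 in the other 10. The ratio of Oas1a to Oas1c was 283 and 181 in litter 3 and between 67.4 and 89.2 elsewhere.

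Transcript length moved with the same litters in all genes. In litter 5, genes of up to 1500 bases stood at a median log2 difference of 0.71 above the other litters, and the medians for 1500 to 2500, 2500 to 3500 and over 3500 bases were 0.29, -0.03 and -0.48. In litter 3 the slope was the other way, with medians of -0.34, -0.22, -0.06 and 0.18. The listed transcripts also held 71.4% and 74.7% of all TPM in litter 5, and between 59.0% and 64.9% elsewhere. Oas1a (1885 bases) and Oas1g (1977 bases) lay at 0.45 and 0.26 in litter 5, near the genes of their length, while Oas1c (2291 bases) lay above them at 0.72. Oas3 (4720 bases) lay at -0.88, Oasl2 (3123 bases) at -1.25 and Oas2 (3869 bases) at -1.94. Taken relative to genes of like length in each library, a step added after the values were seen, these were 0.14, -0.05, 0.64, -0.41, -1.21 and -1.61 in that order, and Oas1c in litter 3 was -1.71 in place of -1.85. On that scale Oas1a, Oas1g, Oas3, Oas2 and Oasl2 lay at -0.51, -0.55, -0.65, -0.40 and -0.29 in litter 3, and Oasl1 at 0.28. The pairs between the groups then had r of 0.07 to 0.76, those among Oas1a, Oas1c and Oas1g 0.82 to 0.90 and those among Oas2, Oas3 and Oasl2 0.63 to 0.91. Oas3 had 0.65 to 0.76 with Oas1a, Oas1c and Oas1g, beside 0.66 with Oas2 and 0.63 with Oasl2. The genotype ratios moved by at most 0.03, with Oas1a at -0.24, Oas1g at -0.31 and Oas1c at -0.35, and none passed (limma adjusted p = 0.635 for each of the 3).

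**Figure D4:**
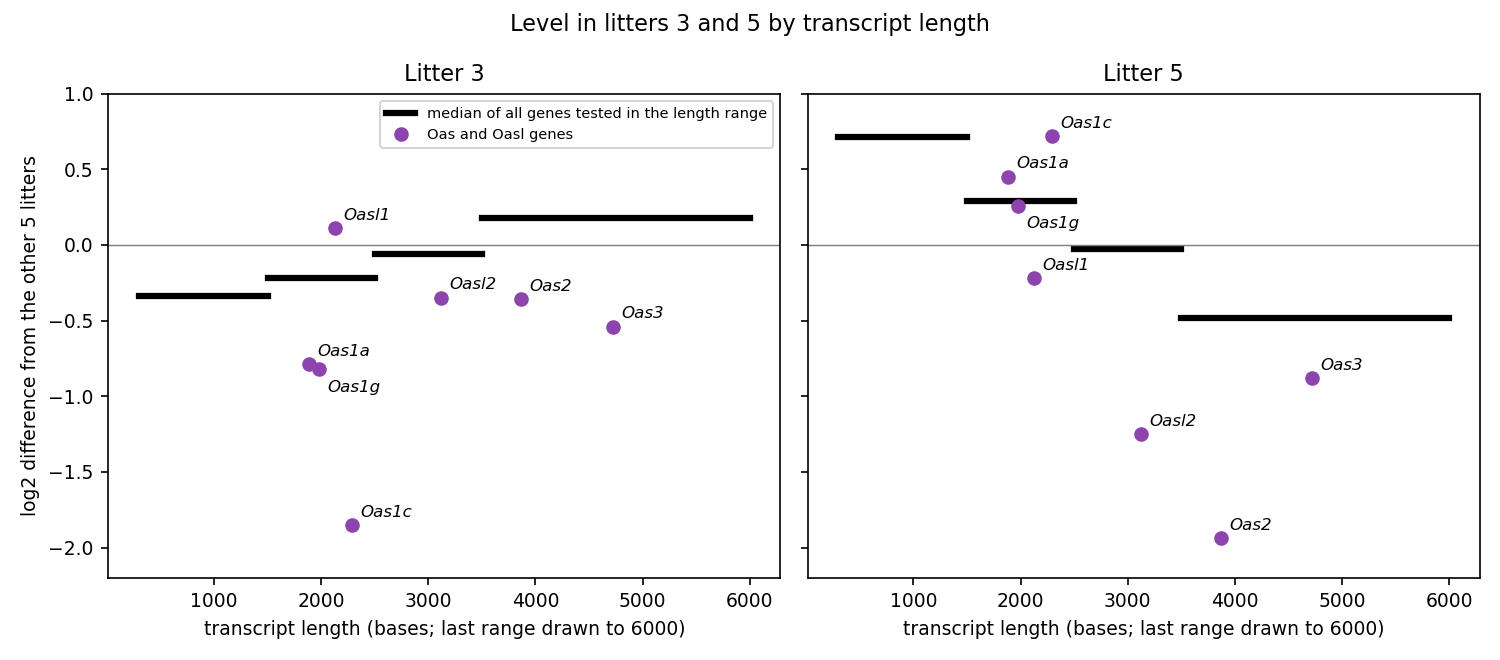
Log2 difference of litter 3 (left) and litter 5 (right) from the mean of the other 5 litters (vertical axis) against transcript length in bases (horizontal axis), with black bars for the median of all genes tested in 4 length ranges and purple points for 7 members. The bars rise with length from -0.34 to 0.18 in litter 3 and fall from 0.71 to -0.48 in litter 5, and Oas1c in litter 3 and Oas2 and Oasl2 in litter 5 lie well below the bar of their length. In litter 3 every member drawn except Oasl1 lies below its bar.

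Most other genes around the 2′,5′ chains had low TPM values. Pde12, the phosphodiesterase that takes the 2′,5′ chains apart, lay between 1.01 and 1.81 TPM with a log2 ratio of -0.04 ± 0.25 (SD of 6 litters; limma adjusted p = 0.942). The other small synthetase genes of the cluster were listed at or near 0, with Oas1e and Oas1f listed at 0 in all 12 libraries, Oas1d at most 0.188 TPM and Oas1h at most 0.403 TPM. The table holds no counts, so how much of these genes a listed 0 allows is unknown.

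Abce1, which also splits ribosomes after translation, had ratios above 0. It was at 18.3 to 36.6 TPM (median 29.8) in ErbB4 myeKO and at 15.7 to 27.4 TPM (median 20.0) in ErbB4 FF. The groups overlapped, but ErbB4 myeKO was higher than its littermate in 6 of 6 litters, as held for 2.51% of all genes tested. The ratios of the litters ran from 0.09 (litter 5) to 0.81 (litter 2), and their log2 mean was 0.38 ± 0.26 (SD of 6 litters; limma adjusted p = 0.603; exact permutation p = 0.0312, the smallest possible here). Without litter 6 it was 0.37 ± 0.29 (SD of 5 litters), higher in 5 of 5 as held for 3.90% of all genes tested (limma adjusted p = 0.767; exact permutation p = 0.0625, the smallest that 5 litters allow).

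The inputs and companions of the family were read from lists. Among 17 genes that carry the interferon signal to these promoters, 0 passed the adjusted threshold, 10 lay below 0 and the median was -0.05 (11 and -0.11 without litter 6). Of the subunits of the factor that binds the GAAA repeat, Stat2 had a log2 ratio of -0.19 ± 0.19 (SD of 6 litters; limma adjusted p = 0.603), and Irf9 was listed at 0 TPM in some libraries, with medians of 1.33 TPM in ErbB4 myeKO and 1.46 TPM in ErbB4 FF. Irf7, whose translation Oasl1 restrains, had -0.36 ± 0.43 and Irf1 -0.05 ± 0.13 (SD of 6 litters; limma adjusted p = 0.603 and 0.819). Without litter 6 Stat2 was at -0.17 ± 0.20, Irf7 at -0.32 ± 0.48 and Irf1 at -0.01 ± 0.08 (SD of 5 litters). Ifnb1, which encodes interferon β, lay between 0.421 and 10.7 TPM and was higher in 3 litters and lower in 3. Among 23 other interferon-induced genes tested, 22 lay below 0 and 0 passed, with a median of -0.29 (21 and -0.24 without litter 6). Of all genes tested 50.2% lay below 0, with a median of 0.00. Isg15, a ubiquitin-like modifier, had -0.30 ± 0.34, Ifit1, which binds foreign RNA ends, -0.29 ± 0.38 and Mx1, an antiviral GTPase, -0.33 ± 0.42 (SD of 6 litters; limma adjusted p = 0.603 for each). Without litter 6 these 3 genes were at -0.24 ± 0.35, -0.25 ± 0.41 and -0.42 ± 0.39 (SD of 5 litters).

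Other double-stranded RNA sensors had 8 of 9 ratios below 0 with a median of -0.17, and Eif2ak2, the kinase PKR, had -0.05 ± 0.13 (SD of 6 litters; limma adjusted p = 0.830). The 5 tested genes of cytosolic DNA sensing were all below 0 with a median of -0.20, of 20 IFNγ targets 16 were below 0 with a median of -0.07, and of 10 M1 genes 7 were above 0 with a median of 0.23. The share of all genes tested below 0 was 50.2%, with a median of 0.00, and in each of these lists 0 genes passed the adjusted threshold. Without litter 6 the medians of the 4 lists were -0.13, -0.17, -0.05 and 0.17, with 0 genes past the threshold. The first 3 lists then had 8 of 9, 5 of 5 and 17 of 20 genes below 0, and 7 of 10 M1 genes lay above 0. The 10 other genes whose profile over the 12 libraries was most like the mean profile of the 7 members were Sh3bp5l (Pearson's r = 0.954), Rpgrip1l (0.949), Iqsec2 (0.948), Usp18 (0.944), Fgr (0.938), Folr2 (0.938), Parp10 (0.930), Ifi208 (0.928), Bahd1 (0.928) and Apol9b (0.927). Without litters 3 and 5 their r was between 0.651 (Apol9b) and 0.963 (Iqsec2).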

How the data were processed

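RNA from M1-activated BM-Mɸs of 12 mice was sequenced with single-end reads of 75 bases. The authors pseudoaligned the reads with kallisto (build mm10 per the labels) and deposited TPM, limited to the principal isoforms of APPRIS. The version and the transcriptome release are not given in the sources used here. The authors also deposited the mean natural log of normalized estimated counts per transcript, made with sleuth, and p- and q-values of their own test, which were not used. The table carries no read depth, so precision rests on the spread between litters.

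Of 29213 lines, 405 repeat a transcript and were dropped, and TPM were summed per gene. Genes averaging at least 1 TPM were fitted as log2(TPM + 0.5) in limma 3.58.1 (R 4.3.3; lmFit, then eBayes with a trend); litter was a block, and p was adjusted by Benjamini-Hochberg over 8780 genes. A fold change on this scale understates that of low genes. For single values an exact permutation test, two-sided, went through all 64 ways to swap littermates (smallest p 0.0312). Each mouse is 1 replicate. Littermates share a number on the labels, and their deviations from the group means correlated by 0.273 to 0.774 in the 6 litters. The highest r of any 2 libraries was 0.9708, so no library was taken as a duplicate. In no litter did the level of Y-linked genes differ in kind between littermates.

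Sequences came from GENCODE M21 and RefSeq (GRCm38). Python 3.11.15 with pandas 2.3.3 and Biopython 1.88 was used.

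The members and the gene lists were chosen with earlier results of these data known. Genes named are the members, other genes of the same axis, genes of the interferon response, the label and cell type checks, and the 10 other genes most like the members' mean profile. Some results that this rule selects are not reported here. Siglech and the erythroid genes at 0 were named as markers at 0. Alternatives were no litter block, a Y-linked covariate, pseudocounts of 0.1 and 1, no filter, a filter at 5 TPM, median-ratio rescaling, no trend, the top transcript of a gene alone, each litter left out and, added after the values were seen, litters 3 and 5 left out, each litter left out for the order of levels, and values relative to genes of like length (20 length bins).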

Additional observations from a re-analysis of the deposited data

Results flagged for a closer look

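Among 30 sets of 6 values (TPM per genotype and litter ratios of the members and of genes that act on the same axis), 1 held a value far from the others by Dixon's gap test, which chance flags in about 1 of 20 sets. It was Oas1g in the library labelled ErbB4 myeKO of litter 3, at 14.0 TPM, while the other 5 libraries of that genotype lay between 26.0 and 32.2 TPM. Its littermate had 22.8 TPM, the lowest value of Oas1g in ErbB4 FF. Without litter 3 the log2 ratio of Oas1g was -0.26 in limma.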

How the results depend on the processing

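No member was called under any of 17 alternatives, and 116 of 118 member ratios computed under them lay below 0. Many of these ratios repeat the main value by design. With littermates in pairs, the block, the trend and the filter cannot change the ratio of a member. The top transcript alone can change only that of Oasl1. The exceptions came without litter 2, where Oas2 and Oasl2 were both at 0.02 (with each litter left out, Oas2 ran from -0.40 to 0.02 and Oasl2 from -0.09 to 0.02). No gene of the whole table was called either, except 1 without litter 3. With each litter left out, the count of genes called ran from 0 to 1, that of members called was 0 throughout, that of members lower ran from 5 of 7 (without litter 2) to 7 of 7, and the median of these 7 members from -0.32 (without litter 5) to -0.15 (without litter 2). With no litter block, which ignores the pairing of littermates, 0 genes and 0 members were called, while the count of genes at an unadjusted p under 0.05 went from 721 to 75 and of members from 3 to 0. The median of -0.22 and the 7 members below 0 cannot change in that fit. Without litters 2, 3 or 6, each left out alone, 0 members had an unadjusted p under 0.05 and a ratio below 0. The other alternatives gave medians between -0.27 and -0.19, and the median of all genes stayed within -0.01 and 0.01 in every case. The order of the members' levels, tried in each genotype alone, with the top transcript alone and with each litter left out, kept 7 neighbour pairs, or 6 without litter 2, where Oas2 stood behind Oas1g. The step to Oas1b is 1 of these pairs and does not measure that gene. TPM of 1 transcript per gene cannot settle Oas1b or Oas2, whose reads other transcripts share, and 6 litters allow no permutation p under 0.0312.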
